A study of Phaseolus vulgaris and Phaseolus lunatus with 12 samples.

Results

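The genes described here are annotated to the enzyme families that carry jasmonate synthesis on from the lipoxygenase product: an allene oxide synthase, an allene oxide cyclase and 3 genes of the 12-oxophytodienoate (OPDA) reductase family. They are 5 genes of 73321 in the deposited count tables, 4 of 43997 in the lima bean (*Phaseolus lunatus*) table and 1 of 29324 in the common bean (*Phaseolus vulgaris*) table. They were chosen by their annotation and by their difference between infested and clean leaves, so those differences are given as a description, with no test. RNA sequencing compared the first true leaf of 3-week-old plants of common bean (cultivar California Red Kidney) and lima bean (variety Peladilla), grown at 23 °C in 16 h of light and 8 h of darkness. All leaves, clean and infested, had been detached. Infested leaves carried 50 adult females of the spider mite *Tetranychus urticae* (London strain, reared on *P. vulgaris*) per leaflet, control leaves carried none, and both were frozen at 24 h. Each of the 4 groups holds 3 libraries. The labels do not say whether libraries came from separate plants, so p-values measure the spread between libraries, which may be technical.

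Jasmonates are fatty-acid hormones that switch on defences of leaves against chewing and cell-sucking animals. In the chloroplast, a 13-lipoxygenase makes a hydroperoxide of linolenic acid, allene oxide synthase turns it into an unstable epoxide, and allene oxide cyclase closes the ring to give OPDA. OPDA moves to the peroxisome, where an OPDA reductase of the type called OPR3 in Arabidopsis and tomato reduces it, and rounds of beta-oxidation shorten its side chain to jasmonic acid. Other OPDA reductases, such as OPR1 and OPR2 of Arabidopsis, share the flavin-binding domain but are not the main route to jasmonic acid. Genes of this pathway are themselves induced by jasmonate in many plants.

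Total counts were 13317991 to 17255676 per library in lima bean and 17264823 to 19343807 in common bean. Levels are read counts scaled to a fixed TMM-adjusted library size (CPM), means are ± SD (n = 3), and log2 fold changes are infested minus control ± SE. In edgeR's quasi-likelihood test, 17.1% of tested lima bean genes and 0.976% of tested common bean genes passed an adjusted p of 0.05. In lima bean all 29 genes matched by mesophyll markers (RuBisCO small subunit and chlorophyll a/b-binding proteins) were expressed. Of these, 16 fell and 0 rose, and their summed level was 61647 to 75914 CPM in control and 27630 to 50173 CPM in infested libraries. Of 11 seed storage and oleosin genes 6 were at 0 in every library. That list summed to 1.52 to 6.39 CPM in control and 0.621 to 2.19 CPM in infested libraries. Nodule or root words (leghemoglobin, nodulin-26, early nodulin-like and Casparian strip) matched 23 genes, of which 10 were at 0 in every library. The words do not show that a matched gene is confined to nodule or root. This list summed to 434 to 611 CPM in control and 565 to 733 CPM in infested libraries. Of its 6 tested genes 1 rose and 1 fell. The summed level of 34 phloem genes was 815 to 855 CPM in control and 788 to 931 CPM in infested libraries. Clock genes, a check of collection time, had 6 of 19 tested members lower and 0 higher. The part of the mesophyll and clock markers in the results below was not tested, and fewer cells of a type and less RNA per cell cannot be told apart in whole leaves. In common bean the marker words matched 1 mesophyll gene, at 23.6 to 28.6 CPM in control and 22.6 to 25 CPM in infested libraries, so the check for mesophyll rests on that gene. The words matched 2 phloem genes (summed 95.6 to 129 and 103 to 143 CPM) and 2 clock genes (97.8 to 120 and 101 to 119 CPM). Nodule or root words matched 3 genes, of which 2 were at 0 (245 to 354 and 350 to 406 CPM). None of the 5 tested genes of these common bean lists, the mesophyll gene included, passed in edgeR.

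Over all tested genes, infested libraries lay wholly above control libraries in 19.7% and wholly below in 18.1% of lima bean genes, and wholly above in 9.09% of common bean genes. All 5 members passed the low-count filter, PHAVU_003G131500g and Pl09G0000018700.v1 through the group where they are high alone, and all 5 have groups that do not overlap, as the choice of members on this contrast would give.

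Allene oxide synthase 3 of lima bean (Pl03G0000013200.v1, chromosome 3, 1115032 to 1118189, minus strand, build not given in the sources used here) stood at 110, 84.1 and 101 CPM in the control libraries and at 281, 293 and 363 CPM in the infested ones. The infested libraries all lay above the control libraries, and infested library 3 was the highest. The mean went from 98.5 ± 13.1 to 312 ± 44.4 CPM, a log2 fold change of 1.66 ± 0.15. The name comes from the best match, a tomato protein. In tomato, AOS3 is a root enzyme that also accepts 9-hydroperoxides, and the product name of this gene lacks the chloroplast tag that 3 of the other 4 lima bean synthases carry. The name alone therefore does not place the gene in the plastid route.

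The table names 4 further allene oxide synthases in lima bean, of which 3 passed the low-count filter, and all 3 rose in edgeR's quasi-likelihood test, with p-values adjusted (Benjamini-Hochberg) over all tested genes of the table. They are named allene oxide synthase 1, chloroplastic. Pl11G0000056600.v1 went from 457 ± 91.4 to 889 ± 105 CPM (log2 fold change 0.96 ± 0.18, adjusted p = 0.00948). Pl09G0000037400.v1 went from 269 ± 43.2 to 591 ± 88.8 CPM (1.14 ± 0.17, adjusted p = 0.00376), and Pl01G0000019500.v1 from 28.5 ± 3.28 to 45.8 ± 5.31 CPM (0.69 ± 0.13, adjusted p = 0.0101). Per gene length, the first of these made up 50.5% to 59.7% and the next 21.5% to 31.6% of the summed synthase level in control libraries. Their fold changes were below that of the gene named 3, a difference that was not tested. A second gene named allene oxide synthase 3 (Pl07G0000059700.v1) had 0.386 ± 0.334 and 0.747 ± 0.331 CPM and was too low to test.

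Allene oxide cyclase of lima bean (Pl04G0000080700.v1, chromosome 4, 8595369 to 8596824, minus strand) held 14.1, 24 and 11.4 CPM in control libraries and 251, 208 and 278 CPM in infested ones. The groups do not overlap, and the lowest infested library exceeded the highest control library several times over. The mean rose from 16.5 ± 6.64 to 245 ± 35.1 CPM, a 14.8-fold ratio and a log2 fold change of 3.89 ± 0.28. Relative to the mean, the control libraries varied more than the infested ones, with a coefficient of variation of 40.2% against 14.3%. The SD itself was larger in infested libraries, and neither difference in spread was tested.

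Of the remaining cyclases of lima bean, 1 of 2 rose. Pl08G0000023600.v1 held 39, 30.4 and 27.4 CPM in control and 124, 108 and 160 CPM in infested libraries, and rose by 2.01 ± 0.18 on the log2 scale (edgeR, adjusted p = 0.000387). Pl03G0000030100.v1 held 17.3, 24.5 and 23.2 CPM in control and 23.8, 23.3 and 32.6 CPM in infested libraries. These ranges overlap, and its difference of 0.30 ± 0.18 did not pass (edgeR, adjusted p = 0.302).

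**Figure D1:**
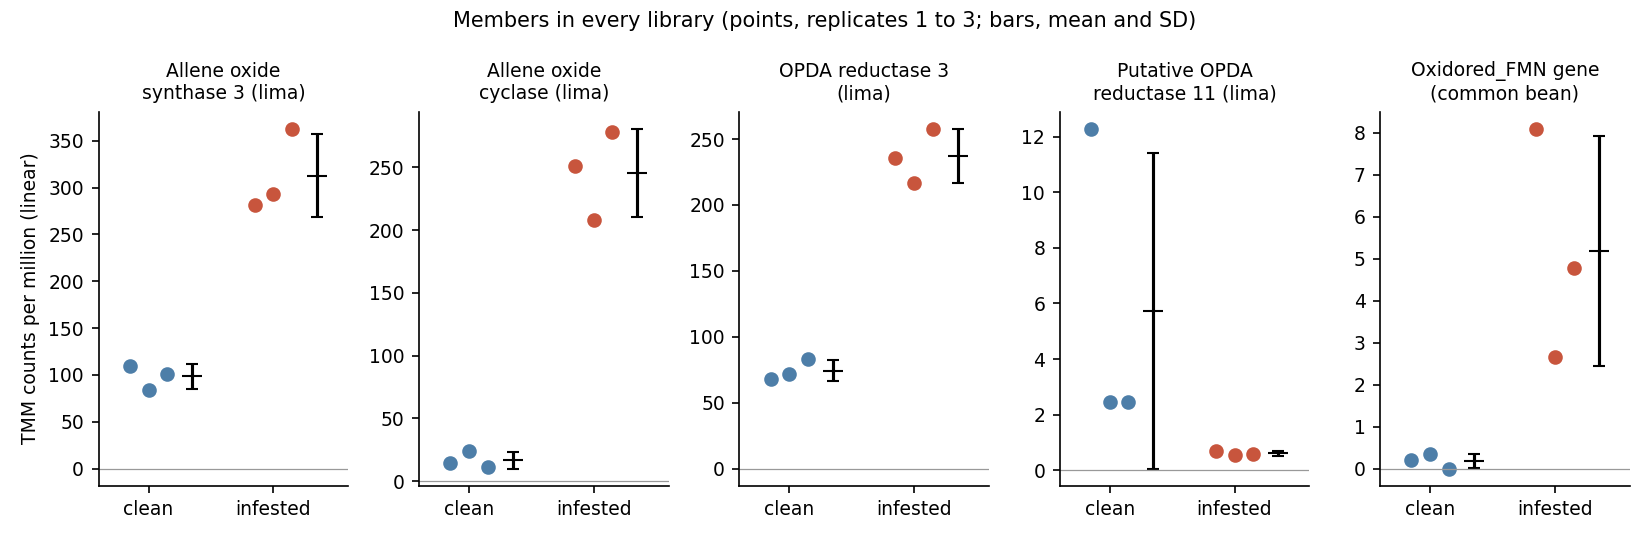
Level of each member in CPM (linear axes, a separate scale per panel) in clean and infested leaves. Points are libraries and bars the mean and SD (n = 3). In 4 panels every infested library lies above every clean one, and in the panel of putative OPDA reductase 11 every infested library lies below, with clean library 1 at 12.3 CPM far above the other clean libraries.

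12-oxophytodienoate reductase 3 of lima bean (Pl03G0000203100.v1, chromosome 3, 24939630 to 24943542, minus strand) is named for the reductase that commits OPDA to jasmonic acid. It held 67.7, 71.7 and 83.1 CPM in control and 236, 217 and 258 CPM in infested libraries. The groups do not overlap and the spread within each was small, at a coefficient of variation of 10.8% and 8.63%. The mean went from 74.2 ± 7.98 to 237 ± 20.5 CPM, a log2 fold change of 1.68 ± 0.12. That ratio of 3.2 is close to the 3.17 of allene oxide synthase 3.

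A neighbouring copy with the same product name, Pl03G0000203000.v1 (chromosome 3, 24926771 to 24930112, minus strand), lies 9517 bases away with no gene between. It was nearly silent in control leaves, at 5, 15 and 1 counts, and reached 199, 252 and 327 counts in infested leaves. In CPM these are 0.285, 1.05 and 0.0724 against 15.4, 16.7 and 24.2. The copy rose by 5.32 ± 0.52 on the log2 scale (edgeR, adjusted p = 0.000533). On leaving out a library, the copy rose by 4.86 (control library 3) to 6.56 (control library 2). It passed the low-count filter through its infested libraries, so its p-value does not stand apart from the way it was kept. The handling of reads shared by near-identical copies is not given in the sources used here, which makes the split between these genes uncertain. On the scale of CPM per kb of gene length, this copy made up 0.108% to 1.78% of the pair in control libraries and 7.49% to 10.4% in infested libraries.

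The common bean member (PHAVU_003G131500g, chromosome 3, 32101768 to 32104939, minus strand) carries no product name, only the domain family Oxidored_FMN that the OPDA reductases share. It held 4, 6 and 0 counts in control libraries and 145, 46 and 87 counts in infested libraries, or 0.205, 0.344 and 0 CPM against 8.1, 2.66 and 4.79 CPM. Infested library 1 was the highest and infested library 2 the lowest of the infested group, and the groups do not overlap. The mean went from 0.183 ± 0.173 to 5.18 ± 2.74 CPM, a log2 fold change of 4.77 ± 0.73. On leaving out a library, this value ran from 4.22 (control library 3) to 5.51 (control library 2). The gene passed the low-count filter through its infested libraries alone, so a gene kept in this way had to differ.

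It too has a neighbour of its family. PHAVU_003G131600g (chromosome 3, 32132282 to 32135990, minus strand) begins 27342 bases further on with no gene between. It held 18.2, 22.8 and 25 CPM in control and 32.9, 24 and 31 CPM in infested libraries. These ranges overlap, and its difference of 0.41 ± 0.15 did not pass (edgeR, adjusted p = 0.388). On the scale of CPM per kb, PHAVU_003G131500g made up 0% to 1.65% of its pair in control libraries and 11% to 21.5% in infested libraries.

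The pairs are laid out alike in both species. On chromosome 3 of each table, neighbouring family genes on the minus strand are followed by a gene with a DENN domain on the plus strand: Pl03G0000203200.v1 (24953518 to 24968198) in lima bean and PHAVU_003G131700g (32159497 to 32174323) in common bean. In both species the copy far from the DENN gene was near 0 in control leaves and higher in every infested library. The copy beside the DENN gene was expressed in all control libraries of both. The DENN genes themselves stood at 49.6 and 54.1 CPM in control and infested lima bean (log2 difference 0.12, adjusted p = 0.469, edgeR) and at 53.3 and 51.1 CPM in common bean (−0.06, adjusted p = 0.871, edgeR). No table of orthologs was used, so the layout is a description and not a match of genes between species.

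**Figure D2:**
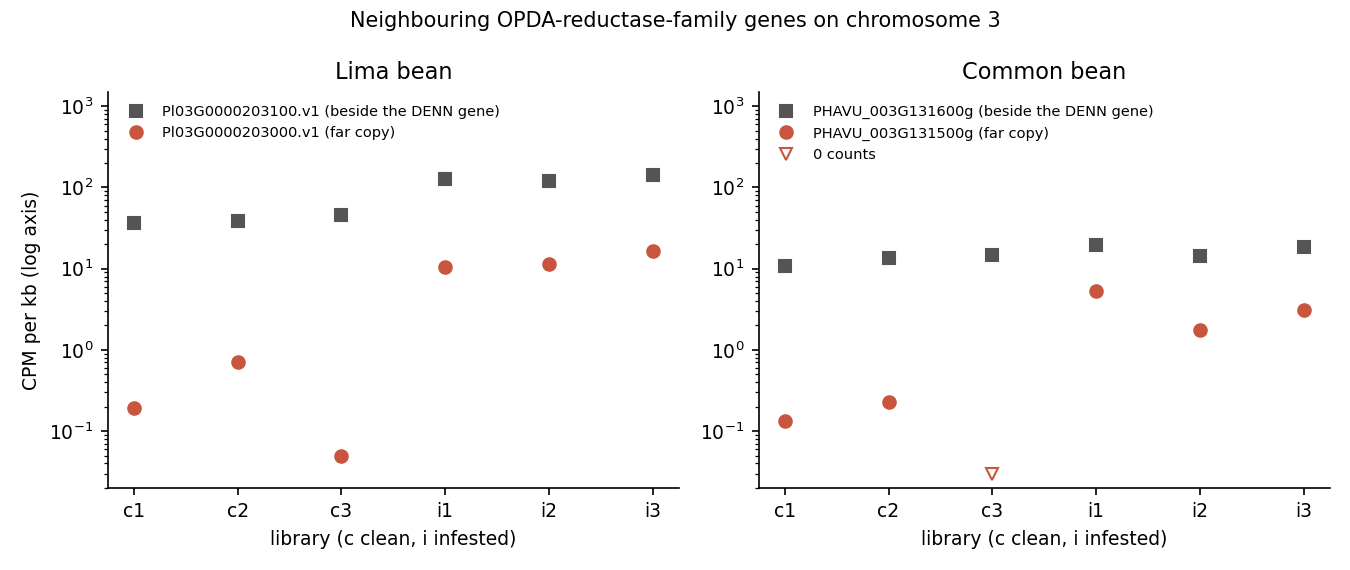
Level per gene length (CPM per kb, log axis) of the neighbouring OPDA-reductase-family genes on chromosome 3 in each library of lima bean and common bean. Squares are the copy beside the DENN gene and circles the far copy, and an open triangle marks 0 counts. The far copy lies at or below 0.712 CPM per kb in all control libraries of both species and at or above 1.74 in all infested ones.

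Putative 12-oxophytodienoate reductase 11 of lima bean (Pl09G0000018700.v1, chromosome 9, 1285388 to 1287674, plus strand) went the other way. Its name comes from a rice protein, and its role in bean is not known. The control libraries held 216, 35 and 34 counts (12.3, 2.45 and 2.46 CPM) and the infested libraries 9, 8 and 8 counts (0.699, 0.532 and 0.593 CPM). The infested libraries all lay below the control libraries, and control library 1 alone held most of the control counts. The log2 fold change was −3.24 ± 0.73 with all libraries and −2.01 without control library 1. The gene passed the low-count filter through its control libraries alone, so it too had to differ once kept.

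The other OPDA reductase genes of lima bean were mostly low and mixed. Beside the members, the table holds 8 family genes, of which 5 could be tested and 2 rose. Beside Pl03G0000203000.v1, a gene named 12-oxophytodienoate reductase 2 (Pl01G0000150300.v1) rose from 9.12 ± 0.137 to 15.6 ± 2.2 CPM (0.78 ± 0.15, edgeR adjusted p = 0.0116). That call was lost when infested library 2 (adjusted p = 0.0541) or infested library 3 (adjusted p = 0.0559) was left out. The other gene of that name (Pl03G0000352300.v1) held 9.08 ± 2.63 and 10.6 ± 1.91 CPM and did not pass. Neither tested gene that shares the name putative reductase 11 with Pl09G0000018700.v1 passed. Pl01G0000001200.v1 held 14.4 ± 4.26 and 12.6 ± 3.34 CPM (−0.20 ± 0.26, edgeR adjusted p = 0.659). Pl02G0000012200.v1 held 2.52 ± 1.9 and 5.04 ± 2.29 CPM (1.01 ± 0.56, edgeR adjusted p = 0.255).

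In common bean, 7 of 10 other Oxidored_FMN genes could be tested and 1 rose. PHAVU_002G043000g (chromosome 2, 4053445 to 4055449), the middle gene of a run of 3 family genes, held 10, 7 and 16 counts in control and 64, 50 and 87 counts in infested libraries. The gene passed the low-count filter through its infested libraries, so its p-value does not stand apart from the way it was kept. It rose by 2.61 ± 0.44 on the log2 scale (edgeR, adjusted p = 0.027), a call that ended without control library 1 (adjusted p = 0.0923), control library 2 (adjusted p = 0.114) or any infested library (adjusted p = 0.103, 0.0718 and 0.0825 without libraries 1, 2 and 3). Its neighbours in the run, PHAVU_002G042900g and PHAVU_002G043100g, differed by 0.18 ± 0.11 and 0.11 ± 0.45 and did not pass. The most abundant family gene, PHAVU_001G000800g, held 173 ± 17.9 and 158 ± 26.6 CPM (−0.14 ± 0.13, edgeR adjusted p = 0.761). The low genes that differed made little of the family total, which was 200 ± 9 CPM per kb in control and 216 ± 18.2 in infested leaves.

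Per gene length, the order of the lima bean members changed with infestation. In control leaves allene oxide synthase 3 was highest at 68.1 ± 9.07 CPM per kb, ahead of OPDA reductase 3 at 40.6 ± 4.37, the cyclase at 18.2 ± 7.33 and putative reductase 11 at 3.51 ± 3.48. The libraries of neighbours in that order did not overlap. In infested leaves the cyclase came first at 271 ± 38.7 CPM per kb and allene oxide synthase 3 next at 216 ± 30.7, and the libraries of these neighbours overlapped. OPDA reductase 3 followed at 130 ± 11.2 and putative reductase 11 at 0.371 ± 0.0516, each apart from its neighbours.

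Summed over all named genes of a step, the synthases went from 463 ± 60.3 to 1010 ± 128 CPM per kb and the cyclases from 63.3 ± 8.76 to 407 ± 64.9. The OPDA reductases named 3 went from 40.9 ± 4.22 to 142 ± 13.9 CPM per kb, and those named otherwise from 24 ± 6.88 to 26 ± 4.97. The cyclase member made up 23.1% to 36.8% of the cyclase level in control libraries and 64.8% to 68.4% in infested ones. Allene oxide synthase 3 made up 13.4% to 16.5% and 19.7% to 22.6% of the synthase level. OPDA reductase 3 made up 53.9% to 71.7% of the reductase level in control and 75% to 80.8% in infested libraries. These sums hold the members, and are a description.

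**Figure D3:**
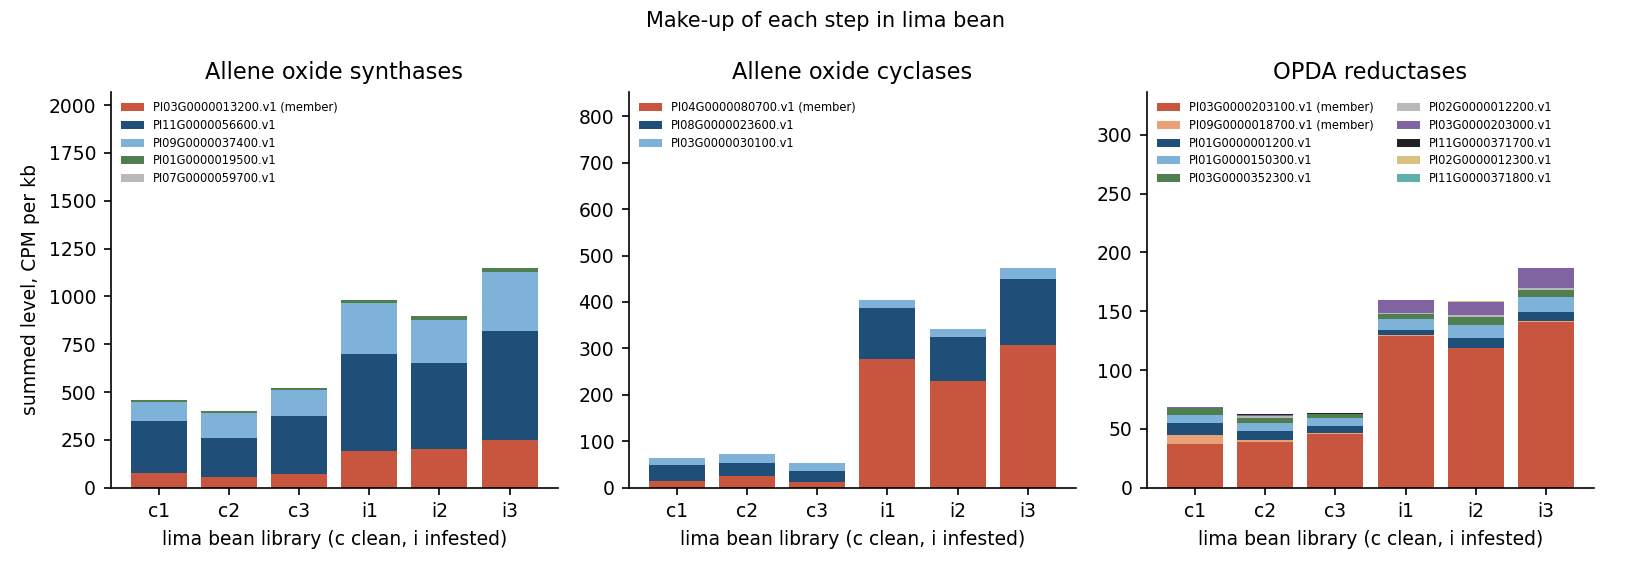
Stacked level per gene length (CPM per kb, linear axes from 0) of every gene named for allene oxide synthase, allene oxide cyclase or OPDA reductase in each lima bean library, with members in red and orange. The summed cyclase level is 54.6 to 72.1 in clean and 343 to 472 in infested libraries, and the member takes the larger share of it in infested leaves.

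Other genes of the route, and of steps that branch from it or follow it, could be read in lima bean through genes picked by product name. Leaving the members out, 38 genes matched the lists, 30 were tested, 14 rose and 2 fell. That is 53.3% called, where 17.1% of all 18523 tested genes were called, 9.65% higher and 7.46% lower. Their median log2 fold change was 0.60, against −0.01 over all tested genes. The lists were drawn up with earlier results of these data known, and they hold the family genes given above.

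In the peroxisomal steps, the multifunctional protein AIM1 (Pl04G0000362200.v1), which in Arabidopsis takes part in the beta-oxidation that yields jasmonic acid, held 147, 151 and 146 CPM in control and 349, 375 and 362 CPM in infested libraries. It rose by 1.29 ± 0.10 on the log2 scale (edgeR, adjusted p = 0.000205). Of the copies named MFP2, which acts in general fatty-acid breakdown, Pl03G0000157600.v1 fell by 0.69 on the log2 scale (edgeR, adjusted p = 0.016). Its call was lost without control library 3 (edgeR, adjusted p = 0.0509) or infested library 3 (0.0732), and with a replicate block (0.0701). Its neighbour Pl03G0000157500.v1 held 96.9 ± 30.4 and 163 ± 45.4 CPM and did not pass (edgeR, adjusted p = 0.0848).

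Acyl-CoA oxidases, which start each round of beta-oxidation, had 2 of 6 tested members higher and 0 lower. An acyl-CoA oxidase 1 (Pl02G0000129600.v1) went from 86.4 ± 12.9 to 154 ± 3.93 CPM (0.84 ± 0.13, edgeR adjusted p = 0.00404). Its namesake Pl03G0000312300.v1 held 64.8 ± 6.04 and 82.9 ± 6.99 CPM and did not pass (0.35 ± 0.11, edgeR adjusted p = 0.0641). Acyl-CoA oxidase 2 (Pl02G0000393600.v1) went from 14.8 ± 4.02 to 30.1 ± 7.06 CPM (edgeR, adjusted p = 0.0208). The call ended without control library 2 or 3 or infested library 2 or 3, at an adjusted p of up to 0.0914. It also ended with a replicate block (edgeR, adjusted p = 0.0856). Its namesake Pl02G0000393700.v1 held 1.24 ± 0.873 and 1.41 ± 0.435 CPM and did not pass (edgeR, adjusted p = 0.87). The 3-ketoacyl-CoA thiolase 2 (Pl07G0000356400.v1), which closes each round, rose from 112 ± 8.29 to 196 ± 34.7 CPM (0.80 ± 0.14, edgeR adjusted p = 0.00848).

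The peroxisomal importer ABC transporter D family member 1, which brings OPDA and fatty acids into the peroxisome in Arabidopsis, was called at 1 of 2 copies. Pl02G0000392200.v1 went from 129 ± 9.08 to 173 ± 10.7 CPM (edgeR, adjusted p = 0.0282). The call ended without control library 1 or 2 or infested library 2 or 3, at an adjusted p of up to 0.109. It also ended with a replicate block (edgeR, adjusted p = 0.086). Pl01G0000406200.v1 held 58.5 ± 4.71 and 58.8 ± 4.95 CPM (0.01 ± 0.11, edgeR adjusted p = 0.968). A chloroplast member 2 of that family (Pl05G0000050700.v1) fell from 113 ± 11.5 to 71.9 ± 7.52 CPM (edgeR, adjusted p = 0.00969). Its namesake Pl05G0000050600.v1 held 7.45 ± 0.843 and 6.54 ± 1.41 CPM and did not pass (edgeR, adjusted p = 0.609). Of 3 tested 4-coumarate--CoA ligase-like genes, a group that includes the ligase for the reduced OPDA product, 1 rose. A 4-coumarate--CoA ligase-like 9 (Pl04G0000063000.v1) went from 2.78 ± 0.878 to 5.82 ± 0.137 CPM (edgeR, adjusted p = 0.0343). Its call was lost on omitting any library but control library 3 (adjusted p 0.0571 to 0.11), and with a replicate block (edgeR, adjusted p = 0.0751). The other gene of that name, Pl09G0000225800.v1, held 61.3 ± 9.76 and 64.7 ± 4.05 CPM (0.08 ± 0.13, edgeR adjusted p = 0.729).

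Enzymes that compete for the hydroperoxide or act on finished jasmonic acid were measured too. The chloroplast hydroperoxide lyase (Pl05G0000226200.v1), which cuts the same hydroperoxide into green leaf volatiles, held 154, 136 and 142 CPM in control and 424, 377 and 343 CPM in infested libraries. It rose by 1.41 ± 0.12 on the log2 scale (edgeR, adjusted p = 0.000315), so both the synthases and the lyase had higher transcript levels. A probable jasmonic acid carboxyl methyltransferase 2 (Pl01G0000013000.v1), of the enzymes that make volatile methyl jasmonate, went from 1.41 ± 0.58 to 6.12 ± 2.68 CPM (edgeR, adjusted p = 0.0153, and 0.0705 without infested library 3). The other tested gene of that name, Pl09G0000012700.v1, held 3.74 ± 1.01 and 4.31 ± 1.67 CPM and did not pass (0.21 ± 0.34, edgeR adjusted p = 0.721). The words for the conjugating enzyme matched no gene. A jasmonoyl--L-amino acid synthetase JAR4 (Pl10G0000301900.v1), which joins jasmonic acid to amino acids to form the active hormone and was chosen after its values were seen, held 117 ± 31.8 and 115 ± 22 CPM (−0.03 ± 0.22, edgeR adjusted p = 0.935).

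In common bean, few genes carry a product name, and the words for allene oxide synthase and cyclase, peroxisomal importers, acyl-CoA oxidases and thiolases matched 0 genes, so these steps were not analysed here. Leaving the member out, 1 of 10 tested pathway genes was called, or 10%, where 0.976% of 19360 tested genes were called, 0.935% higher. The called gene is PHAVU_002G043000g, kept by the low-count filter through its infested libraries. With a replicate block, 4 of these genes were called. A 4-coumarate--CoA ligase-like 5 (PHAVU_001G001300g), whose Arabidopsis namesake is the ligase for the reduced OPDA product, held 13.5 ± 1.68 and 21.5 ± 1.05 CPM (0.68 ± 0.13, edgeR adjusted p = 0.0539). A jasmonate O-methyltransferase (PHAVU_001G012300g) held 4.23 ± 2.08 and 10.2 ± 2.8 CPM (1.27 ± 0.35, edgeR adjusted p = 0.197). A probable inactive hydroperoxide lyase (PHAVU_005G116800g) held 150 ± 43.6 and 189 ± 71.9 CPM and did not pass (edgeR, adjusted p = 0.707). Levels were scaled within each species' table, so no test was made between the species.

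**Figure D4:**
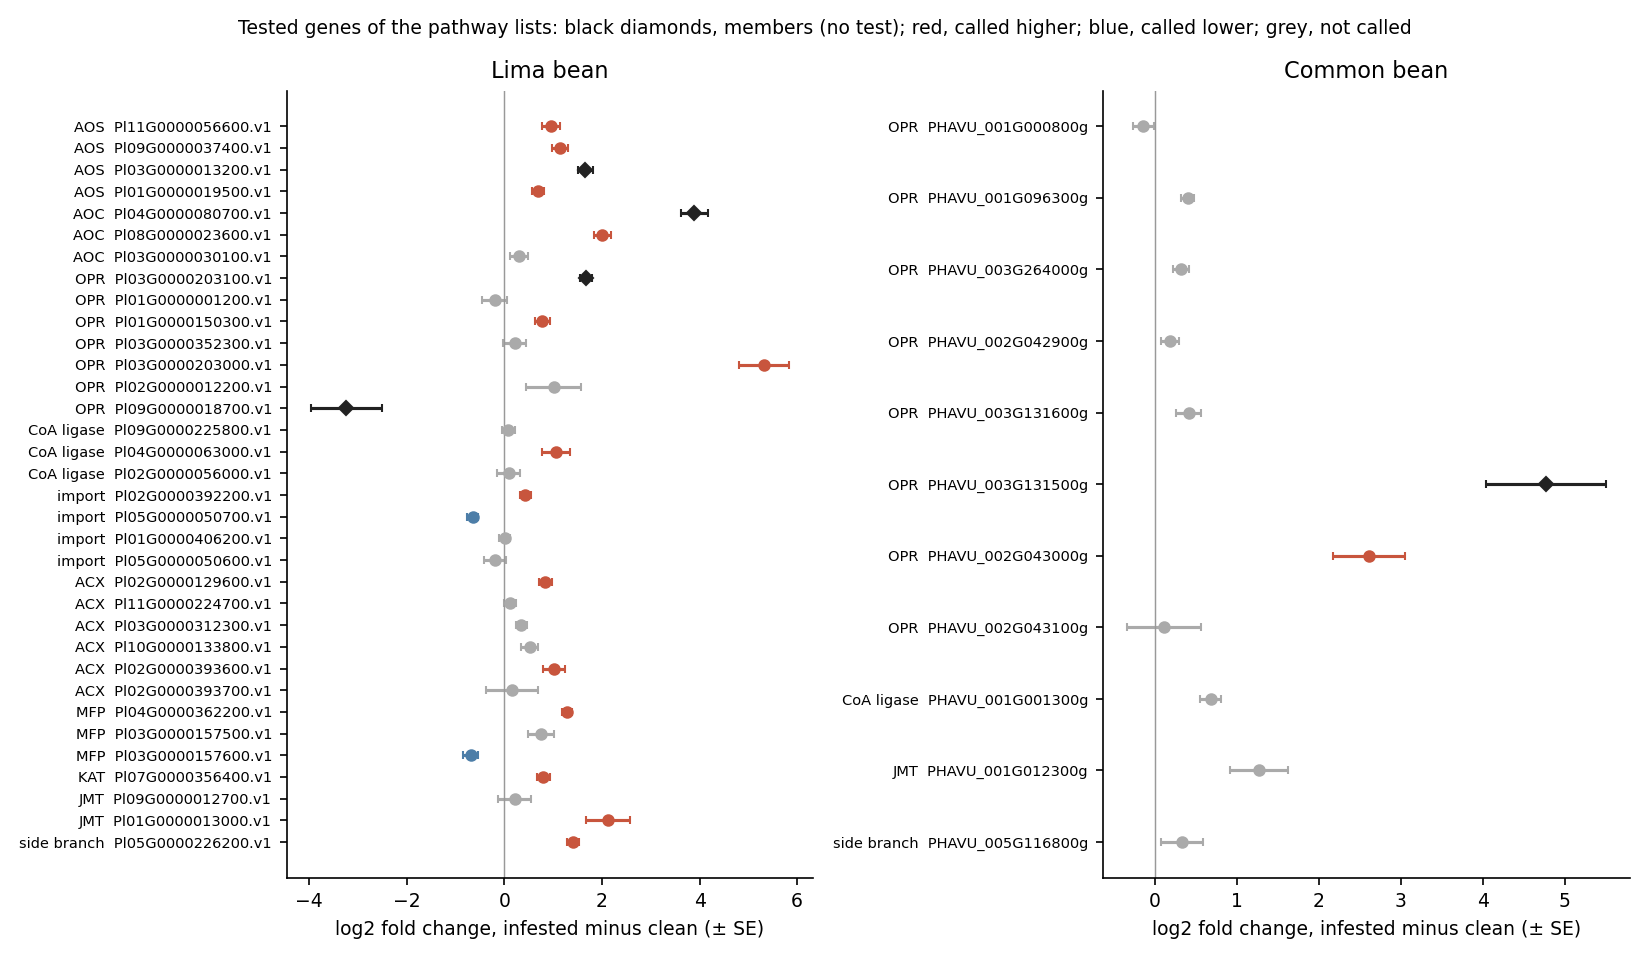
Log2 fold change (infested minus clean, ± SE) of every tested gene of the pathway lists in lima bean and common bean, by step (AOS, AOC, OPR, CoA ligase, import, ACX acyl-CoA oxidases, MFP multifunctional proteins, KAT thiolase, JMT methyltransferases and the hydroperoxide lyase side branch). The import step holds ABC transporter D family genes, and its gene called lower is a chloroplast member. Black diamonds are members, given without a test, and coloured circles the genes called higher (red) or lower (blue). In lima bean 14 other genes are called higher and 2 lower, and in common bean 1 is called higher.

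Genes with the most similar pattern were found by the root mean square difference of log2 CPM, centred on each gene's mean, over the 6 libraries of the species. With control and infested groups only, this measure mainly picks genes of like fold change, the value by which the members were chosen. The nearest genes of the cyclase had log2 fold changes of 3.61, 3.78 and 3.61 against its own 3.89. The matches are a description. They were sought among 14753 tested lima bean genes with a product name and 8411 tested common bean genes with a product name or domain family. The cyclase lay nearest to a salicylic acid carboxyl methyltransferase 3 (Pl03G0000344600.v1, difference 0.17), of the enzymes that make volatile methyl salicylate, with 100 CPM in control and 1225 CPM in infested leaves. Next came tryptophan synthase beta chain 2 (Pl02G0000006700.v1, 0.23) and a nerolidol synthase (Pl06G0000316900.v1, 0.25), which makes a terpene alcohol that plants convert to a volatile homoterpene, at 112 and 1371 CPM.

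OPDA reductase 3 lay nearest to a COP1-interacting protein 7 (Pl06G0000309500.v1, difference 0.06, 63.6 and 195 CPM), the calcium-binding protein CML48 (Pl05G0000232600.v1, 0.10) and UDP-glycosyltransferase 83A1 (Pl04G0000040500.v1, 0.11). Allene oxide synthase 3 lay nearest to a soyasapogenol B glucuronide galactosyltransferase (Pl07G0000021700.v1, difference 0.07), an enzyme of saponin synthesis with 243 and 821 CPM. A pectinesterase 3 (Pl10G0000315300.v1, 0.08) and an L-ascorbate oxidase homolog (Pl09G0000021500.v1, 0.09) followed.

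Putative reductase 11 and the common bean member lay further from their nearest genes. They hold 25 infested and 10 control counts in all, respectively, and counting noise at such counts widens this measure. Their distances are therefore not comparable with those of the other members. The closest to putative reductase 11, a GDSL esterase/lipase (Pl03G0000261900.v1), differed by 0.48. An aldehyde dehydrogenase 22A1 (Pl06G0000233400.v1) differed by 0.60 and a dormancy-associated protein 1 (Pl06G0000304300.v1) by 0.64. The common bean member lay nearest to a gene of the lipoxygenase family (PHAVU_010G135700g, difference 0.50), with 0.715 CPM in control and 9.57 CPM in infested leaves. A gene of the 2-oxoglutarate oxygenase family (PHAVU_001G065300g, 0.57) and a WRKY factor gene (PHAVU_010G057900g, 0.59) followed.

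Of the 10 genes directly beside the members, 5 were tested and 2 were called. Over all tested genes, 17.1% were called in lima bean and 0.976% in common bean. So few neighbours, from species with unlike shares, carry no result about the surroundings of the members. These are Pl03G0000203000.v1 above and a probable CoA ligase CCL6 (Pl03G0000013100.v1) beside allene oxide synthase 3, which fell from 20.3 to 12 CPM (log2 difference −0.76, edgeR adjusted p = 0.0447). The genes on both sides of the cyclase had 0 counts in every library.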

How the data were processed

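The authors deposited unscaled counts of reads per gene, in a table for each species. HISAT2, featureCounts and DESeq2 are named, per the submitters' processing notes, without version or setting. Genome build, annotation release and use of strand are not stated, so overlapping and antisense genes cannot be separated. Gene names and lengths come from the deposited tables. No gene ID matched RefSeq assembly P. vulgaris v2.0 (0 matches).

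Each species was fitted alone with edgeR 4.0.16 in R 4.3.3: TMM scaling, filterByExpr, a quasi-likelihood test of the infestation effect, and p-values adjusted by Benjamini-Hochberg over 18523 genes in lima bean and 19360 in common bean. Calls have an adjusted p under 0.05. SEs were computed back from the F statistic. CPM per kb divides CPM by the deposited gene length, and log2 CPM for the pattern search used a prior count of 2. On simulated data with 200 genes changed, the fits recovered 55.8% of 2-fold and 90.3% of 4-fold changes in lima bean. In common bean they recovered 63.8% and 94.5%. False calls made up 6.47% of calls in lima bean and 6.5% in common bean. A gene that did not pass may therefore still differ. Libraries of a group differed by far more than counting error, at 10.5 or more in chi-square per gene in every pair.

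Alternatives were other scalings, no low-count filter, a robust fit, DESeq2 1.42.0, a 2-fold threshold, a replicate block and leaving out each library. Genes named are the members, called genes of the pathway lists (at most 3 per list beyond the synthases, cyclases, reductases and side branch) and some uncalled genes of those lists. The 3 genes nearest in pattern to each member and genes beside members are named too. The members and lists were chosen with earlier results of these data known.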

Additional observations from a re-analysis of the deposited data

How the results depend on the processing

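The members kept their direction under every alternative run. Leaving out each library gave log2 fold changes of 1.54 to 1.75 for allene oxide synthase 3, 3.69 to 4.26 for the cyclase, 1.61 to 1.77 for OPDA reductase 3, −3.60 to −2.01 for putative reductase 11 and 4.22 to 5.51 for PHAVU_003G131500g. The other pathway genes called in lima bean were 16, with 8 at 2-fold or more and 10 to 17 on leaving out each library, the lowest without infested library 3. In common bean the 1 call became 4 with DESeq2, 2 with library totals, 2 without the low-count filter, 2 with the robust fit and 0 to 2 on leaving out each library. With 0 calls in edgeR, 5 to 6 of these genes still had an unadjusted p below 0.05. All called genes numbered 3170 in lima bean, 1264 of them at 2-fold or more, and 1317 to 3204 on leaving out each library. In common bean they numbered 189, 465 with DESeq2, and 92 to 172. The cause of these shifts was not tested.

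In lima bean same-numbered libraries did not deviate together (correlations −0.22, 0.049 and −0.184). In common bean their correlations were 0.138, 0.085 and 0.206, each above every correlation of differently numbered libraries (−0.202 to 0.078). The labels do not say what a number marks, so the main fit took no pairs. Pairing in common bean is not excluded. With a replicate block the calls were 1617 in lima bean and 539 in common bean, and among pathway genes 12 and 4. Without it they were 3170 and 189, and among pathway genes 16 and 1, so the counts depend on this choice. Depth limits PHAVU_003G131500g, with 10 control counts in all, and putative reductase 11, with 25 infested counts, and both folds have an SE of 0.73.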
